A study of Mus musculus with 24 samples.

Results

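Heparanase and the heparan sulfate proteoglycans of the cell surface were followed here across 7 mouse cell lines. The set held 10 of the 45547 genes and unnamed transcripts on the array: Hpse, the syndecans Sdc1, Sdc2, Sdc3 and Sdc4, the glypicans Gpc1, Gpc3, Gpc4 and Gpc6, and the sulfatase Sulf1. Its members were chosen by gene symbol, with their measured levels in all 7 lines already known. The differences of the members between lines are therefore descriptions, and no p is given for them.

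Heparan sulfate is a long sulfated sugar chain that is built in the Golgi on core proteins, and the chains bind growth factors, chemokines and matrix proteins. Syndecans carry the chains on transmembrane proteins, whereas glypicans are held in the membrane by a lipid anchor. Heparanase cuts the chains within their length, and Sulf1 and its relative Sulf2 remove sulfate groups from them outside the cell; heparanase has long been studied in melanoma for its part in invasion.

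Total RNA of 24 samples was hybridised to Agilent whole-mouse arrays, 1 sample per array. The melanoma lines, labelled B16F1-GFP-M, -D, -DB#1, -DB#2 and -DB#3, derive from B16F1 mouse melanoma and carry GFP, green fluorescent protein, in their names. M (3 arrays) was the parental line, and D (4 arrays) was recovered, after dormancy, from mice vaccinated with irradiated tumour cells. DB#1 (4 arrays), DB#2 (3) and DB#3 (3) were a further generation from a brain site, so each is a single line that was grown in culture before RNA was taken. The myeloid lines M0 (4 arrays) and J365 (3) are named in the labels without the leukemia line they stand for; each name carries the tag p20. The study's figure legends say that experiments were repeated 3 times, but not that array replicates were separate cultures. The p-values therefore measure the spread between these samples, which may be technical. Fewer cells of a kind and less RNA per cell cannot be told apart in such bulk samples.

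Levels are normalized log2 signals: the log2 of the background-corrected intensity less the 75th percentile of the array, so that 0 is the signal at that percentile. They compare arrays for 1 probe, not probes with each other. A probe was read on an array if the scanner software marked it well above background. The share of probes read was 89.9% on D replicate 3, which stands apart. It was lowest on D replicate 1, at 43.6%, and 47.4% to 53.8% on all other arrays. The mean level of 7 melanocyte markers was 6.83 to 7.74 on melanoma arrays and -4.18 to -3.78 on myeloid arrays, and that of 7 blood markers was -5.43 to -2.81 and 1.45 to 2.66. The highest blood value among melanoma arrays, -2.81, belonged to D replicate 3, where 6 of the 7 blood markers were read, and the others were at most -4.53. On D replicate 3 the 7 fibroblast markers averaged -3.00, against -4.77 to -3.58 on the other melanoma arrays, and the 7 neuron and glia markers -0.81, against -2.62 to -1.83. The part of that array in the values of D is given below by leaving it out. The fibroblast markers also differed between lines, at -4.77 to -4.59 in M and -3.81 to -3.58 in DB#2, without overlap. In M 2 of the 7 were read on every array and 4 on none, and in DB#2 4 and 3. In DB#1 they averaged -4.34 to -3.68 and in D -4.56 to -3.00, which also lay above M on every array. DB#3, at -4.65 to -4.42, overlapped M. Dcn, the matrix protein decorin, was read on all 3 arrays of DB#2 (mean -1.32) and on 0 of M. Pdgfra went the other way, read on all 3 arrays of M (mean -3.15) and on 0 of DB#2 (mean -5.49). Pdgfrb was read on 0 arrays of M, and on every array of D, DB#1 and DB#3 as well as DB#2. The part of these markers in the values of D, DB#1 and DB#2 was not tested.

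The melanoma lines read 7 of the 10 members on each of their 17 arrays: Hpse, the 4 syndecans, Gpc1 and Gpc6. The 7 myeloid arrays read none of these. Gpc3, a glypican best known from fetal tissue and liver cancer, was read on 0 arrays, with levels of -6.64 to -5.63. Sulf1 was also read on 0 arrays, with levels of -6.75 to -4.68. Gpc4 was read on 1 array, D replicate 3, at -2.41, and lay between -6.80 and -4.77 on all other arrays. The levels of these 3 genes are signals at background, and no fold is given for them.

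**Figure D1:**
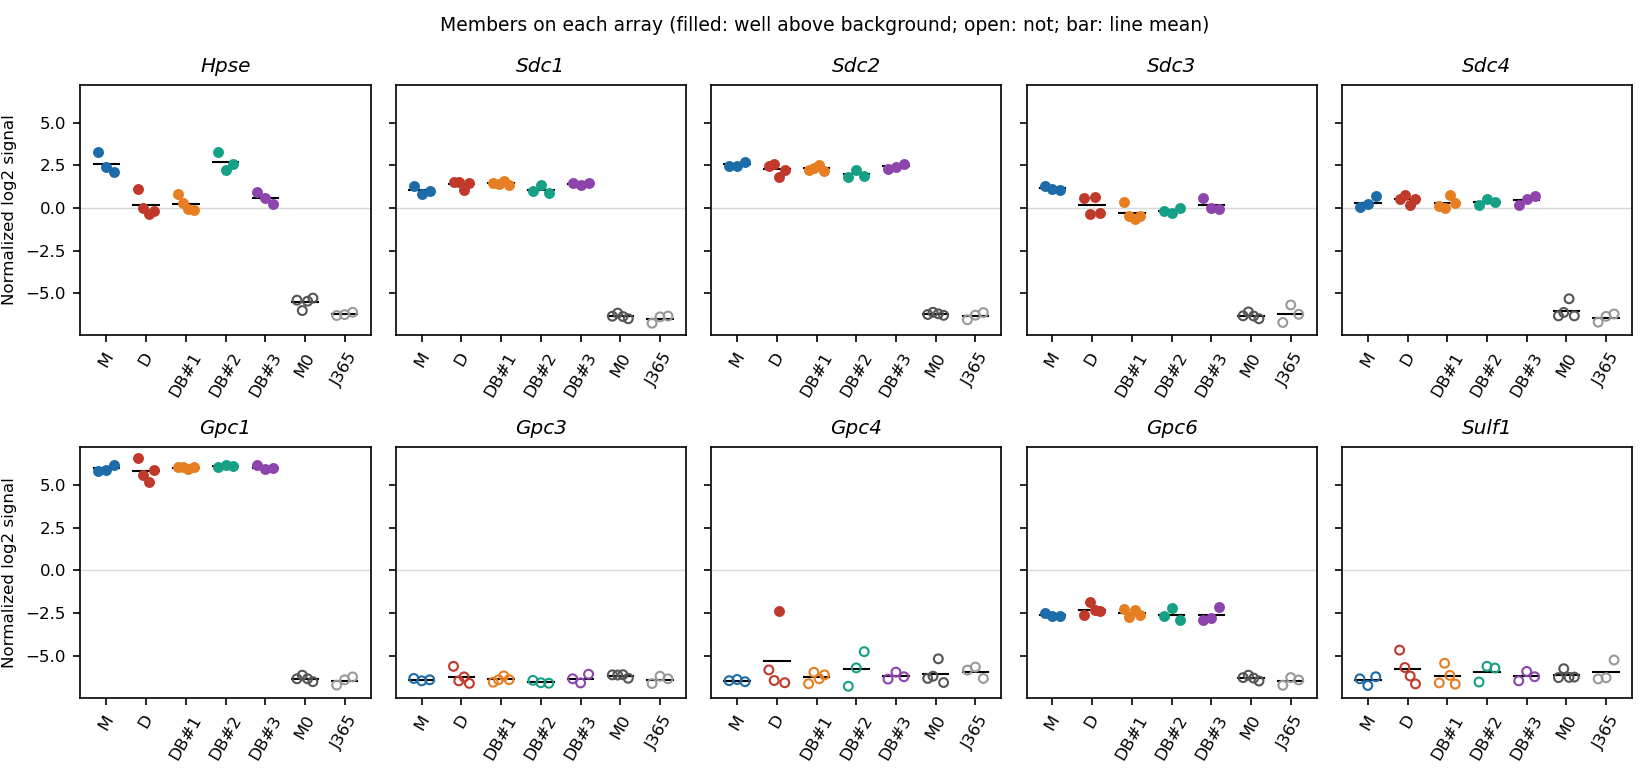
Normalized log2 signal (vertical axis) of the 10 members on each of the 24 arrays, by line (horizontal axis); filled points were well above background, open points were not, and bars are line means. Hpse was high in M and DB#2 (means 2.60 and 2.71) and lower in D, DB#1 and DB#3 (0.17, 0.24 and 0.59), Sdc3 was highest in M (1.15), and all open points for Gpc4 lay at or under -4.77.

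Hpse and Sdc3 were the members with the largest differences among melanoma lines, so the 250 bases before the start site of each are shown. Both come from RefSeq on GRCm38.p6 and read 5′ to 3′ along the gene's strand. Hpse lies on the minus strand with this window at chr5:100719717-100719966, and Sdc3 on the plus strand at chr4:130792287-130792536. Capitals mark the GC box GGGCGG on either strand, a motif bound by Sp family factors.
Hpse promoter: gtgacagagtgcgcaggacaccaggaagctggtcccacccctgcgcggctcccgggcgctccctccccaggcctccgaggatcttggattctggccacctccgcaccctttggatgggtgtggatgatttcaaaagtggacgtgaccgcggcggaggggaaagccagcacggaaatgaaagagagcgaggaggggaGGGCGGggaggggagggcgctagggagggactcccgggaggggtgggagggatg
Sdc3 promoter: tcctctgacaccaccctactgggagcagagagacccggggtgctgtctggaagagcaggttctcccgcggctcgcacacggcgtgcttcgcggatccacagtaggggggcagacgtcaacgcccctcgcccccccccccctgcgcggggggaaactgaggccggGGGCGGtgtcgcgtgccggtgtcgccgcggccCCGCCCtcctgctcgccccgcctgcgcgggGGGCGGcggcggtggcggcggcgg
The Hpse window held 1 GC box, which began at position -54 from the start site. The Sdc3 window held 3, at -86, -54 and -24, the middle of which was on the other strand. GC boxes were found in 32.7% of all 32851 promoter windows of this length. Neither window held the E-box CACGTG (6.02% of windows), the CATGTG core of the M-box bound by the melanocyte factor Mitf (12.3%) or the AP-1 site TGANTCA (6.75%), searched on both strands. Such letters describe the windows only, since the arrays do not read promoters.

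Hpse, the endoglycosidase that cuts heparan sulfate chains internally, was high in M and DB#2 and low in the other 3 melanoma lines. In M the level was 3.28, 2.43 and 2.09 in replicates 1 to 3. In D it was 1.14, 0.01, -0.34 and -0.15 in replicates 1 to 4. All 4 arrays of D lay under all 3 of M. In DB#1 the level was 0.84, 0.29, -0.06 and -0.12. DB#2 had 3.29, 2.25 and 2.59, and DB#3, whose replicates are numbered 3 to 5, had 0.96, 0.59 and 0.23. DB#1 and DB#3 stood beside D, and DB#2 stood beside M, with no overlap between these sets of lines. In order of their means the lines were DB#2, M, DB#3, DB#1 and D; DB#2 overlapped M, and the other 3 overlapped each other. On the myeloid arrays Hpse lay between -6.30 and -5.28 and was not well above background.

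As log2 differences from M with the SE of the fit, Hpse was lower by -2.43 ± 0.34 in D, -2.36 ± 0.35 in DB#1 and -2.01 ± 0.37 in DB#3, which are 5.40-fold, 5.14-fold and 4.02-fold. In DB#2 the difference was 0.12 ± 0.37. Against D, DB#2 was higher by 2.55 ± 0.34, or 5.85-fold. These comparisons share the arrays of M or D. Each of the 3 slides, which held 8 arrays, had all lines on it. Within slides 1, 2 and 3 the difference of D from M was -1.51, -2.77 and -3.43. That of DB#1 was -2.15, -1.59 and -3.20, and that of DB#3 was -1.86, -1.84 and -2.32. DB#2 was not on the same side of M on every slide, at 0.17, 0.86 and -0.69, but lay above D by 1.68, 3.63 and 2.74. Without D replicate 3 the difference of D from M was -2.27 ± 0.36, and that of DB#2 from D was 2.38 ± 0.36.

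A second, dimmer Hpse probe gave the same pattern of lines. Its mean level was -0.86 ± 0.36 in M (SD, n = 3), -2.72 ± 0.83 in D (n = 4) and -3.07 ± 0.02 in DB#1 (n = 4). In DB#2 it was -0.37 ± 0.45 (n = 3) and in DB#3 -2.52 ± 0.34 (n = 3), and it was read on all 17 melanoma arrays. Its differences from M were -1.86 in D, -2.22 in DB#1, 0.49 in DB#2 and -1.67 in DB#3.

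**Figure D2:**
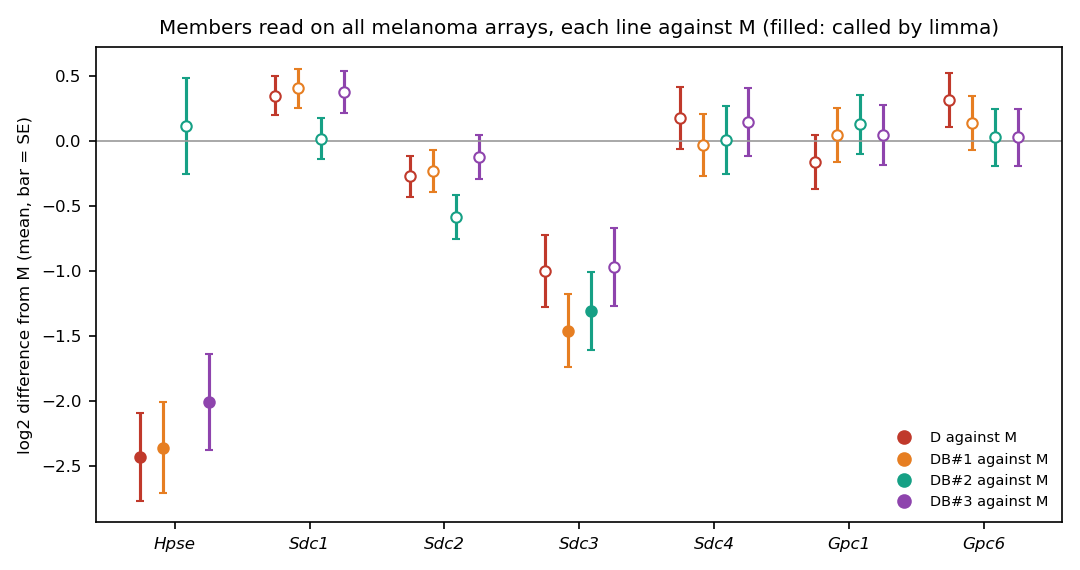
Log2 difference from M (vertical axis; bars are the SE of the limma fit) for the 7 members read on all melanoma arrays (horizontal axis), in D, DB#1, DB#2 and DB#3 by colour; filled points passed an adjusted p of 0.05 over all genes tested. Hpse was lower in D, DB#1 and DB#3 (-2.43, -2.36 and -2.01) and near M in DB#2 (0.12), while Sdc3 was under M in all 4 lines (-1.46 to -0.97).

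Sdc3, the syndecan best known from neurons, was highest in M among the lines. Its level there was 1.29, 1.09 and 1.08. In D it was 0.58, -0.34, 0.65 and -0.28, and in DB#1 0.33, -0.46, -0.67 and -0.44. Every array of both lines lay under every array of M. DB#2 had -0.16, -0.30 and -0.02, and DB#3 had 0.61, -0.02 and -0.05, again under M throughout. D, DB#1, DB#2 and DB#3 were neighbours whose values overlapped in the order of their means.

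The difference of Sdc3 from M was -1.46 ± 0.28 in DB#1 and -1.31 ± 0.30 in DB#2, or 2.76-fold and 2.48-fold. In D and DB#3 it was -1.0 ± 0.28 and -0.97 ± 0.30. Unlike Hpse, Sdc3 was thus low in DB#2 as well, and DB#2 differed from D by -0.31 ± 0.28. On slides 1 to 3 the difference of D from M was -0.96, -0.44 and -1.57, and that of DB#1 -1.75, -0.76 and -1.74. For DB#2 it was -1.38, -1.25 and -1.31, and for DB#3 -1.13, -1.11 and -0.68. Without D replicate 3, D differed from M by -1.17 ± 0.28. Sdc3 had 1 probe, so no second probe could be compared.

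The other syndecans moved less. Sdc1, carried mainly by epithelial and plasma cells, had a mean of 1.04 ± 0.21 in M (SD, n = 3), 1.39 ± 0.23 in D (n = 4) and 1.46 ± 0.11 in DB#1 (n = 4). In DB#2 it was 1.06 ± 0.23 (n = 3) and in DB#3 1.42 ± 0.07 (n = 3). The lines that were low in Hpse were thus the ones with the higher means of Sdc1, by 0.35 ± 0.15, 0.41 ± 0.15 and 0.38 ± 0.16 over M. The values of D overlapped those of M through D replicate 3 (1.05), and without it the difference was 0.46 ± 0.14. The values of DB#1 and DB#3 did not overlap those of M. Sdc1 was not called in any comparison among melanoma lines. These values are from the brightest of 3 probes. In D, DB#1 and DB#3 the second probe differed from M by 0.28, 0.35 and 0.43, and the dimmest by 0.39, 0.16 and 0.17.

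Sdc2, the syndecan of mesenchymal cells, was 2.49, 2.49 and 2.69 in M and 1.83, 2.21 and 1.89 in DB#2. DB#2 lay under M on every array, by -0.58 ± 0.17, and by -0.49, -0.65 and -0.60 on slides 1 to 3. In D, DB#1 and DB#3 its means were 2.29, 2.33 and 2.43, and their values overlapped those of M. Sdc4, a broadly expressed syndecan of focal adhesions, lay between 0.01 and 0.79 on all melanoma arrays. Its means in the 5 lines were 0.29 to 0.50, and every line overlapped M.

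Gpc1, a glypican with an even level in these cells, lay between 5.19 and 6.57 on the melanoma arrays. Both of those values were from D, whose replicates gave 6.57, 5.58, 5.19 and 5.87, while the means of the other 4 lines were 5.97 to 6.09. The differences from M were -0.16 ± 0.21 in D, 0.05 ± 0.21 in DB#1, 0.13 ± 0.23 in DB#2 and 0.05 ± 0.23 in DB#3. Without D replicate 3 that of D was 0.04 ± 0.19. Gpc6, another glypican, was dim but read, at -2.93 to -1.87, and its differences from M were 0.03 to 0.32 with an SE of 0.21 or 0.22.

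The members called are given beside the share of all tested genes that were. A call is an adjusted p under 0.05 in limma, and a gene entered the test once all arrays of either line read it, which was so for 7 of the 10 members wherever M or D took part. In D against M, 1 member was called, Hpse, where 2.97% of all tested genes were. In DB#1 against M 2 were called, Hpse and Sdc3 (3.69% of all genes), in DB#2 against M 1, Sdc3 (3.44%), and in DB#3 against M 1, Hpse (2.76%). Between DB#2 and D 1 was called, Hpse, which was higher in DB#2 (6.34%). Since the members were chosen with these levels known, nothing is read from these counts. The median difference of the 7 members was -0.16, -0.03, 0.02, 0.03 and -0.29 in these comparisons, and that of all tested genes -0.01, 0.04, 0.02, 0.03 and 0.03.

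Several of these calls turned on 1 array. In D against M, 2 members were called without D replicate 1 or without D replicate 3, the added one being Sdc3. Between DB#2 and M, 0 were called without M replicate 1, DB#2 replicate 1 or DB#2 replicate 2, where Sdc3 differed by -1.24, -1.31 and -1.24. Between DB#2 and D, 2 were called without D replicate 1, the added one being Gpc1 (0.55). With the replicate number as a block Hpse was not called in DB#3 against M (-1.49), and with only the arrays of D and M in the fit it was not called in D against M.

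Myeloid lines lacked readable signal for all members. In M against M0, 58.5% of all tested genes were called, and all 7 members read in M were, as higher in M. They passed the filter only through M and had to differ, so the count supports nothing. As bounds set by the lowest readable signal on the M0 arrays, M exceeded M0 at least 103-fold for Hpse. The bounds were at least 35.1-fold for Sdc1, 100-fold for Sdc2, 37.9-fold for Sdc3 and 21.2-fold for Sdc4. They were at least 1070-fold for Gpc1 and at least 2.74-fold for Gpc6. These bounds hold for the brightest probe of each gene only. On the second Hpse probe the log2 difference was 4.40. On the second and dimmest Sdc1 probes it was 6.75 and 2.38. All of these were read on every array of M and on none of M0. In J365 against M0, where 1.47% of all genes were called, 0 members were tested, since none was read.

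The rest of the pathway was followed in 6 lists, of which 74 of 75 genes were on the array. These lists were also chosen with earlier results of these data known. Their counts and adjusted p-values are therefore descriptions as well. Of 53 tested against M, 3 passed in D against M (2 higher, 1 lower), 5 in DB#1 against M (3 higher, 2 lower), 4 in DB#2 against M (2 and 2) and 3 in DB#3 against M (2 higher, 1 lower). Their median differences were -0.04, 0.03, 0.06 and 0.04. Between DB#2 and D 12 of 54 passed, 6 in each direction, with a median of 0.10. Of all tested genes, 2.97% passed in D against M, 3.69% in DB#1, 3.44% in DB#2 and 2.76% in DB#3. The share between DB#2 and D was 6.34%. Each count moved with single arrays. In D against M it was 5 without D replicate 1, and in DB#1 against M 2 without M replicate 1 and 3 without M replicate 2 or 3 or DB#1 replicate 1, 2 or 4. For DB#2 against M it was 2 without any 1 array of M or without DB#2 replicate 3, and in DB#3 against M 1 without M replicate 2 or 3 or DB#3 replicate 4. Between DB#2 and D it was 5, 7 and 6 without DB#2 replicates 1, 2 and 3, and 11 without D replicate 3. Replicates of equal number deviated together in DB#1 and M, and with the replicate block the count of DB#1 against M was 3.

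Among enzymes that modify the chains, Sulf2 rose in the lines that were low in Hpse. Sulf2 removes sulfate groups from finished chains on the cell surface, as Sulf1 does. Its level was -0.56, -0.64 and -0.18 in M, and 2.39, 2.06, 1.22 and 1.66 in D. DB#1 had 1.81, 1.40, 1.74 and 1.39, DB#2 had 0.28, 1.07 and 0.67, and DB#3 had 1.64, 1.32 and 1.96. M was lowest and DB#2 next, and neither overlapped any other melanoma line. Sulf2 rose over M by 2.29 ± 0.33 in D (limma adjusted p = 0.000183), by 2.05 ± 0.33 in DB#1 (limma adjusted p = 0.000423) and by 2.10 ± 0.35 in DB#3 (limma adjusted p = 0.000837). In DB#2 the difference was 1.13 ± 0.35 and did not pass (limma adjusted p = 0.0993). Within slides 1 to 3 the difference of D from M was 2.41, 1.86 and 2.22, and without D replicate 3 it was 2.49 ± 0.34. All Sulf2 values rest on 1 probe. DB#2 was lower than D by -1.16 ± 0.33 (limma adjusted p = 0.0399), a call that ended when any of D replicates 1, 2 and 4 or DB#2 replicates 1 and 3 was left out, without the filter and with only these lines in the fit.

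**Figure D3:**
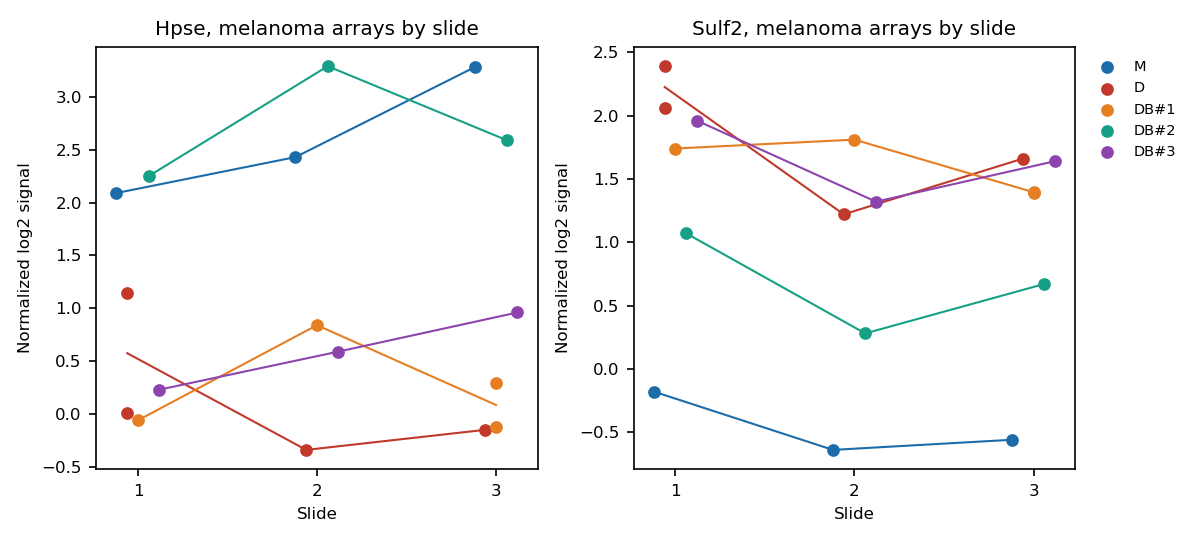
Normalized log2 signal (vertical axes) of Hpse and Sulf2 on the 17 melanoma arrays, by slide (horizontal axis) and line (colour); lines join the mean of a cell line on each slide. On every slide M and DB#2 lay above D, DB#1 and DB#3 for Hpse and under them for Sulf2, with D over M in Sulf2 by 2.41, 1.86 and 2.22 on slides 1 to 3.

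Over the 17 melanoma arrays the levels of Sulf2 and Hpse had a Pearson r of -0.764 (Spearman rho -0.581). Within lines, after taking out each line's mean, r was 0.13. The arrays share lines and slides, so these values only describe them. No other modifying enzyme passed against M. Between DB#2 and D, Glce, the epimerase that makes iduronic acid, was also lower (-1.08 ± 0.21, limma adjusted p = 0.00264), as was the sulfotransferase Hs3st6 (-1.05 ± 0.30, limma adjusted p = 0.0401), which was read on 2 of 3 DB#2 arrays. The call of Glce ended with only these lines in the fit, and that of Hs3st6 under 10 of 16 alternatives, among them D replicates 2 or 3 or DB#2 replicates 2 or 3 left out.

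Of the 9 genes listed for chain degradation, most of them lysosomal enzymes, 8 were read on all melanoma arrays. In each comparison with M 2 passed. Arsg, a sulfatase of that route, was higher than M in all 4 lines. Its level was -0.72, -0.69 and -0.67 in M, 1.86, 0.81, 0.31 and 0.69 in D, and 1.28, 1.77 and 1.89 in DB#2. No array of any other melanoma line reached down to M. The rise was 1.61 ± 0.27 in D (limma adjusted p = 0.00112), 1.21 ± 0.27 in DB#1 (limma adjusted p = 0.0112), 2.34 ± 0.29 in DB#2 (limma adjusted p = 2.19e-05) and 1.25 ± 0.29 in DB#3 (limma adjusted p = 0.0179). The second Arsg probe gave 1.62, 1.18, 2.24 and 1.26. The call in DB#3 was lost without any 1 array of M, without DB#3 replicate 4 or 5, without the filter and with the replicate block, and that in DB#1 without M replicate 1. Normexp ended the calls in DB#1 and DB#3, and a fit of only D and M that in D. Without D replicate 3 the difference of D was 1.81 ± 0.27.

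Hgsnat, the membrane enzyme that acetylates the chain end in the lysosome, followed the order of Hpse more closely. It was 5.96, 6.30 and 6.35 in M and 5.63, 5.54, 5.17 and 5.61 in D. In DB#2 it was 7.01, 6.96 and 7.01, above every other array. DB#2 exceeded D by 1.51 ± 0.14 (limma adjusted p = 2.21e-07) and M by 0.79 ± 0.15 (limma adjusted p = 0.0018). D fell under M by -0.72 ± 0.14 (limma adjusted p = 0.00315) and DB#3 by -0.65 ± 0.15 (limma adjusted p = 0.0125), and the difference of -0.37 ± 0.14 in DB#1 did not pass (limma adjusted p = 0.184). The call in DB#3 was lost without M replicate 2 or 3, without DB#3 replicate 3 or 4, and under 5 settings, the replicate block among them. That in D was lost without scaling, and a fit of only the lines compared ended those in D and in DB#2 against M. Without D replicate 3, DB#2 exceeded D by 1.41 ± 0.13, and D differed from M by -0.61 ± 0.12. With Hpse, Hgsnat had an r of 0.789 over the 17 arrays, and 0.0263 within lines. For Arsg these values were -0.0367 and 0.394.

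Of 12 growth factors and partners of the chains, 4 passed between DB#2 and D. Met, the receptor of the heparin-binding hepatocyte growth factor, was 6.55, 6.40 and 6.39 in DB#2 and 6.19, 5.16, 4.65 and 5.14 in D. Its difference was 1.16 ± 0.22 (limma adjusted p = 0.00229), and 0.95 without D replicate 3, where the call held, though a fit of only these lines ended it. Sdcbp, the syntenin that binds syndecan tails, was higher in DB#2 (0.68 ± 0.18, limma adjusted p = 0.0302), a call that ended under 8 of 16 alternatives, among them D replicates 2, 3 or 4 or DB#2 replicates 1 or 2 left out. Fgfr1, a receptor whose ligands bind through heparan sulfate, was lower (-0.91 ± 0.20, limma adjusted p = 0.00746), and so was Hbegf, a heparin-binding growth factor (-0.81 ± 0.22, limma adjusted p = 0.0272), with overlapping arrays. The call of Fgfr1 ended without DB#2 replicate 1, with the mean over probes and with only these lines in the fit. That of Hbegf ended under 7 of 16 alternatives, among them D replicate 1 or DB#2 replicates 2 or 3 left out. With Hpse over the 17 melanoma arrays, Met had an r of 0.721 and Fgfr1 of -0.838. Within lines the values were 0.671 and -0.578, again only as descriptions.

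Fgfr1 was higher in DB#1 than in M by 0.97 ± 0.20 (limma adjusted p = 0.00555), a call that the mean over its 4 probes ended (0.77). Fgf1, a growth factor that binds the chains, was lower than M in DB#1 (-0.75 ± 0.19, limma adjusted p = 0.03) and in DB#2 (-0.83 ± 0.21, limma adjusted p = 0.0261). The call of Fgf1 in DB#2 was lost without any 1 array of M, without DB#2 replicate 1 or 3, without the filter and with the mean over probes. That in DB#1 was lost with the replicate block, without the filter, with the mean over probes, without any 1 array of M and without DB#1 replicate 1, 2 or 4. Adam10, a protease that sheds syndecans, was lower in DB#2 than in M (-0.67 ± 0.17, limma adjusted p = 0.0246), and leaving out any 1 array of the 2 lines ended the call, as did normexp, no scaling and no filter. It was the 1 shedding gene that passed among the melanoma comparisons, of 6 tested.

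Of the genes that build the linker and the chain, 11 or 12 were tested against M, with 0 calls by limma in each of the 4 comparisons. At an unadjusted p under 0.05 there were 1 in D, 0 in DB#1, 3 in DB#2 and 0 in DB#3. Between DB#2 and D, B4galt7, which adds a galactose of the linker, was lower by -0.77 ± 0.18 (limma adjusted p = 0.0106), a call lost without DB#2 replicate 1, without scaling or in a fit of only these lines. Fam20b, a kinase of the linker xylose, was higher (0.60 ± 0.14, limma adjusted p = 0.0116), as was Extl2 (0.48 ± 0.14, limma adjusted p = 0.0409). The call of Fam20b ended under 6 of 16 alternatives, DB#2 replicate 1 or 3 left out among them, and that of Extl2 under 9, among them D replicates 3 or 4 or any 1 array of DB#2 left out. Of the other core proteins 4 of 8 were tested among melanoma lines, and 0 passed by limma in any of these 5 comparisons (at an unadjusted p under 0.05, 1 in DB#2 against M and 1 in DB#3 against M).

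**Figure D4:**
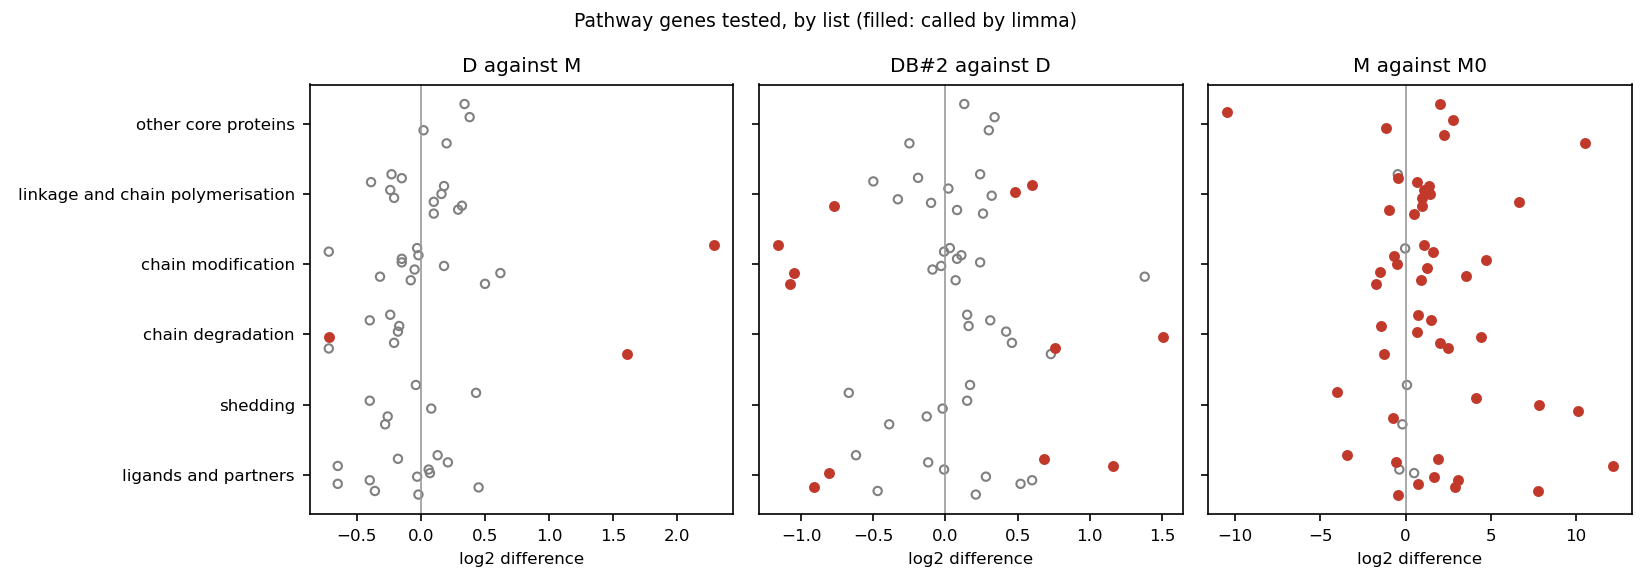
Log2 differences (horizontal axes) of the tested pathway genes in D against M, DB#2 against D and M against M0, by list (vertical axis); each point is a gene, and filled points passed a limma adjusted p of 0.05. The calls number 3 of 53, 12 of 54 and 49 of 55; the filled points furthest right under chain modification and chain degradation in D against M are Sulf2 (2.29) and Arsg (1.61).

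M differed from M0 in 49 of 55 tested pathway genes, 34 higher and 15 lower, with a median difference of 0.94, where 58.5% of all tested genes were called. Genes that were read in 1 line only had to differ, and 9 of the 55 were read on no M0 array and 1 on no M array. Of the 41 read on every array of both lines 35 were called, 23 higher and 12 lower, with a median of 0.69, beside 52% of all genes so read. Genes that were read on no M0 array are given as bounds, with no p. Met was at least 1040-fold higher in M, Agrn, the matrix proteoglycan agrin, at least 332-fold, and the protease Adamts1 at least 266-fold. Ext1, a subunit of the chain polymerase, was at least 23.4-fold higher and Ndst3, which removes acetyl groups and adds sulfate, at least 10.3-fold. These bounds are also for the brightest probe. Second probes of Agrn and Ndst3 differed by only 0.70 and 1.66 and were read on 1 and 2 of the 3 M arrays. The second Met probe differed by 8.11 and was read on all 3. Hgsnat, read on every array of both lines, was higher in M by 4.42 ± 0.14 (limma adjusted p = 8.31e-17). Srgn, serglycin, the granule proteoglycan of blood cells, went the other way. Its mean was 5.61 in M0 and 5.79 in J365, where all arrays read it, and -4.85 in M, where 2 of 3 arrays did and the lowest was -6.38.

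Between the myeloid lines 1 of 45 tested pathway genes passed, beside 1.47% of all tested genes. Fgfr1 was higher in J365 than in M0 by 2.27 ± 0.20 (limma adjusted p = 2.93e-07). It was -1.62, -1.25 and -1.02 in J365 and -3.80 to -3.43 in M0, with no overlap, and 2.40, 2.06 and 2.24 higher on slides 1 to 3. Only the brightest of 4 Fgfr1 probes was read in these lines, and the other 3 differed by -0.15 to -0.08. With the mean over probes the difference was 0.48 and was not called. Without M0 replicate 4 the count of pathway genes that passed was 3.

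The genes whose levels were most like Hpse over the 17 melanoma arrays were sought among 11865 genes read on all of them. By Pearson correlation the nearest were Mgll, a monoglyceride lipase (r = 0.973), Psap, the precursor of the lysosomal saposins (0.952), and Stat5b, a transcription factor (0.947). Mgll had a mean of 3.46 ± 0.72 in M (SD, n = 3), 0.47 ± 0.93 in D (n = 4), 0.37 ± 0.15 in DB#1 (n = 4), 3.58 ± 0.32 in DB#2 (n = 3) and 0.79 ± 0.38 in DB#3 (n = 3), a split of the lines like that of Hpse. The most opposed were Gm24463 (-0.95), 1810065E05Rik (-0.942) and Rtn2, a reticulon (-0.934). The mean of 1810065E05Rik was -3.01 ± 0.62 in M (SD, n = 3) and 0.41 ± 0.81 in D (n = 4). Without D replicate 3 these 6 values of r were 0.971, 0.957, 0.966, -0.966, -0.939 and -0.931. The arrays share lines and slides, and the genes were picked for their r, so the values are descriptions. Among the members themselves, Hpse had an r of 0.482 with Sdc3 and -0.624 with Sdc1, and of 0.539 and 0.276 within lines.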

How the data were processed

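RNA of 24 samples of 7 mouse cell lines was labelled with cyanine 3 and read on 1-colour Agilent arrays. The authors deposited scanner tables that give the linear intensity of every spot, corrected for background by Feature Extraction. The deposited series table held the same intensity values (1511424 of 1511424 equal). The study's methods name GeneSpring but no test for the arrays.

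Control spots and spots marked as outliers were left out (117 of 56605 probes removed), and 0 of the other spots were saturated. The log2 intensity less each array's 75th percentile was used, with the brightest probe of a gene on average. Accessions were matched to a RefSeq table of GRCm38.p6 (32917 probes, 22881 symbols), which was used for names, and promoter windows were taken from RefSeq on that build. All 24 arrays entered 1 limma fit (limma 3.58.1, R 4.3.3; lmFit and eBayes, 17 residual degrees of freedom) with a term per line, with Benjamini-Hochberg adjustment over the genes tested in each comparison. The fit was also run on simulated data. Their errors were independent between arrays, unlike those of arrays that share a slide here, so that run does not give the error rate of these calls. Genes read on all arrays of either line entered a test. For a gene not read in 1 line the bound takes, per array, the higher of its own signal and the dimmest signal that the software marked as well above background.

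The members and gene lists were chosen with earlier results of these data known. Named were all members, the called gene of each list with the largest difference in each comparison, and the 3 genes most and least like Hpse; Glce, Hs3st6, Sdcbp, Hbegf, Fam20b, Extl2 and Srgn, with further calls of Hgsnat, Fgfr1 and Fgf1, were added after their values were seen. Samples were grouped by their labels, and unnumbered arrays were called replicate 4. Deviations of arrays from their line means correlated at 0.655, 0.567 and 0.911 for the numbered pairs of DB#1 and M; in the other comparisons not every pair passed 0.1. Arrays of different lines on 1 slide correlated at 0.495 on average (81 pairs), and on different slides at -0.216 (165 pairs). Alternatives were quantile normalization, normexp with an offset of 50, the 75th percentile over detected probes, no scaling, no filter on dim probes, the mean over probes, slide as a block, the replicate block, only the arrays compared, and each array left out. The number of arrays limited the precision. One gene of the degradation list is not reported here by name.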

Additional observations from a re-analysis of the deposited data

Results flagged for a closer look

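The rise of Sulf2 from M to D (2.29) was larger than its difference between M0 and J365 (0.08), by 2.22 ± 0.47 in the limma contrast of these differences (limma adjusted p = 0.0113). For Fgfr1 the order was the other way, with 0.45 in D against M and 2.27 in J365 against M0, a contrast of -1.82 ± 0.29 (limma adjusted p = 0.000651) that rests on 1 of 4 Fgfr1 probes. Hgsnat differed by -0.72 in D against M and 0.21 in J365 against M0, a contrast of -0.93 ± 0.19 (limma adjusted p = 0.00938). Arsg, at 1.61 and 0.51, did not pass (1.10 ± 0.39, limma adjusted p = 0.234). Of 23120 genes tested in this way 480 passed, or 2.08%. This contrast was added after the data were seen. Its genes had been named for called differences in these data, and the contrast uses some of the same differences again. The p-values are therefore descriptions and not independent tests.

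In 5 of the 87 groups of 4 arrays examined, 1 array lay far from the others; chance gives about 1 in 20. Gpc3 on M0 replicate 3 was -6.33, against -6.14 to -6.12 on the others, and Sulf1 on M0 replicate 1 was -5.77, against -6.29 to -6.26, both at background. Adamts1 on DB#1 replicate 1 was 4.37, against 3.79 to 3.89. Hbegf on DB#1 replicate 1 was -0.11, against -0.61 to -0.59. Srgn on DB#1 replicate 3 was -5.38, against -3.75 to -3.57.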

How the results depend on the processing

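Members gave 1079 values under the alternatives that moved by less than 1 SD between replicates, and 21 that moved by more. Named pathway genes gave 416 that kept their direction and call and 105 that kept the direction only. No difference that had been called reversed (0 cases). Settings changed counts of calls as follows; the cause was not tested.

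Members called in D against M numbered 1 and became 2 with quantile normalization, slide as a block or the replicate block, and 0 with only the 2 lines in the fit. For DB#2 against M 1 became 2 with quantile normalization, the percentile over detected probes or slide as a block, and 0 without scaling. In DB#3 against M 1 became 0 with the replicate block. For DB#2 against D 1 became 3 with quantile normalization and 2 with the percentile over detected probes. Leaving out 1 array gave 1 to 2, 0 to 1, 1 to 1 and 1 to 2 members in these comparisons, and 2 to 2 in DB#1 against M.

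Pathway genes called in D against M numbered 3 and became 6 with quantile normalization or slide as a block, 5 with the percentile over detected probes and 1 with only the 2 lines; leaving out 1 array gave 3 to 5. In DB#1 against M 5 became 3 without the filter, with the replicate block or with the mean over probes (1 array out: 2 to 5). For DB#2 against M 4 became 8 with the percentile over detected probes, 7 without scaling and 2 without the filter (2 to 3). In DB#3 against M 3 became 1 without the filter or with the replicate block (1 to 2). For DB#2 against D 12 became 5 without the filter and 1 with only the 2 lines (5 to 13). In J365 against M0 1 became 2 with quantile normalization, normexp, the percentile over detected probes or no filter, and 0 with the mean over probes (1 to 3).

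Without scaling the median of all tested genes moved to 0.17 in D against M, 0.11 in DB#1, 0.25 in DB#2 and 0.17 in J365 against M0, and the share of calls that were higher went from 46.5% to 74.4% in D against M, from 62.6% to 89.4% in DB#2 against M, from 61.5% to 72.7% in DB#2 against D and from 49.2% to 69.5% in J365 against M0. With the percentile over detected probes it was 52.4% in DB#2 against M and 46.3% in DB#2 against D. Normexp used the median spot signal. The pairing of replicate numbers held for DB#1 and M, and the replicate block left the counts of calls not named here within 1.5 times. Signals near background limit Gpc3, Gpc4, Sulf1 and all members on myeloid arrays.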
